A study of Homo sapiens with 8 samples.

Results

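The insulin-like growth factor (IGF) system was described in FT293 cells, a HEK293 embryonic kidney line with 1 integration site for a tetracycline-inducible transgene, through 10 genes measured by 11 probes among 50599 probes carrying 36337 gene names. The genes were chosen by gene name, and the set was selected on earlier results of these same arrays: IGFBP2, IGFBP3, IGFBP4, IGFBP5, IGFBP6, IGFBP7, IGFALS, IGF2, IGF1R and IGF2R. Their values and the counts of calls among them are therefore given as a description, and no p-value is given for any of the 10. Cells expressed GFP alone, GFP-HuR, GFP-TIA1 or GFP-TIAR, each from the same kind of isogenic Flp-In T-REx integration, so that tetracycline, the tag and the integration method were common to all 4 lines. RNA was collected on the third day of tetracycline and hybridised to 8 one-colour arrays, 2 independent replicates per line. HuR, TIA1 and TIAR are RNA-binding proteins that control splicing, stability and translation of mRNAs. The comparisons asked which RNAs differed between cells with a TIA protein and cells with HuR or GFP.

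IGF2 is a secreted growth factor that signals through the IGF1 receptor (IGF1R), whereas the IGF2 receptor (IGF2R) binds the ligand and takes it into the cell for degradation. The binding proteins hold IGFs outside the cell, which prolongs their life and limits their access to receptors, and IGFBP3 or IGFBP5 forms a large complex with an IGF and the acid-labile subunit encoded by IGFALS. HEK293 cells come from embryonic kidney, a tissue in which IGF2 is known as a fetal growth factor.

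Signals are given as log2 of the processed intensity relative to the 75th percentile of the same array, so a value of 0 is the brightness that 75% of spots do not exceed. Levels of different probes were not set against each other. The array labelled GFP 1 stood apart: 86% of its probes were well above background against 53.2% to 58.5% on the other 7 arrays, its mean local background was 90 intensity units against 37.4 to 43.5, and its correlation with GFP 2 was 0.864 against 0.987 or more between replicates of the other lines. Values against GFP therefore carried a wider error. Of the HEK293 marker genes, 7 of 8 were well above background on all 7 arrays other than GFP 1. Among 13 markers of other cell types, 3 (PTPRC, COL1A1 and CDH5) were above background on all 7 and 4 (HBB, APOB, KRT5 and KRT14) on none. DCN and LUM, fibroblast markers like COL1A1, were above it on 6. The mean of LUM was -1.67 in HuR, -3.33 in TIA1, -1.54 in TIAR and -5.84 in GFP cells. The summed relative signal of the 13 was 0.757 to 0.778 in HuR, 0.793 to 0.865 in TIA1, 1.08 to 1.24 in TIAR and 0.337 to 5.87 in GFP cells. ALB, a liver marker, read -2.76 and -2.97 in TIA1, -3.01 and -3.13 in TIAR, -5.94 and -5.42 in HuR and -3.53 and -6.04 in GFP cells, the pattern that IGFALS and IGFBP3 had, and it was the only one of the 13 with all TIA arrays above all control arrays. The part of such RNAs in the results was not tested. A TIAL1 (TIAR) probe read 4.87 and 4.98 in TIAR-expressing cells and at most 2.52 elsewhere, while a second TIAL1 probe read -4.12 and -3.85 there and -3.45 to -3.70 in GFP and HuR cells. Both TIA1 probes and the ELAVL1 (HuR) probe were no higher in their own line than in all others. Whether they lie within the expressed coding sequence was not tested.

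IGFBP3, IGFALS, IGFBP6, IGFBP7 and IGF2 were brighter in both TIA lines than in HuR-expressing cells, and IGFBP5 was dimmer. Against GFP cells, both TIA lines lay apart for IGFBP3, IGFALS and the brighter IGF2 probe, whereas for IGFBP5, IGFBP6 and IGFBP7 at least 1 TIA line overlapped GFP and the HuR line stood apart from all others. The promoters of 4 of them are shown because these binding protein and complex genes moved together or, for IGFBP5, against the rest. RefSeq promoters matched 8 of the 10 genes. Each is 300 bases of GRCh38.p14, 250 before the start of transcription and 50 after, written 5′ to 3′ on the gene's strand. Capitals mark the TATA-type motifs TATAA and TATATA and also TATTTAA, and the GC box GGGCGG, or their reverse complements, and the motifs were picked with these sequences in view.
IGFBP3, chr7:45921223-45921522, minus strand: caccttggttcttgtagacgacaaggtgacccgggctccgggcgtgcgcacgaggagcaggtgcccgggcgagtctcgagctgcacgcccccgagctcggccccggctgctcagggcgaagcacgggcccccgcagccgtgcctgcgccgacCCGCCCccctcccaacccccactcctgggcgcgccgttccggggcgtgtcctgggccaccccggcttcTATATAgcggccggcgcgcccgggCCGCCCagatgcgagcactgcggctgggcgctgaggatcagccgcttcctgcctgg
IGFALS, chr16:1794859-1795158, minus strand: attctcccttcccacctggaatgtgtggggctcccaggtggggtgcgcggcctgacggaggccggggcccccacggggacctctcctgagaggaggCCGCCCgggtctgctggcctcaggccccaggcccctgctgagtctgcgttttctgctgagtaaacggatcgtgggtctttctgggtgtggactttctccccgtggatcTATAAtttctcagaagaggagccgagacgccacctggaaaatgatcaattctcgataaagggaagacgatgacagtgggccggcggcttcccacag
IGFBP6, chr12:53097417-53097716, plus strand: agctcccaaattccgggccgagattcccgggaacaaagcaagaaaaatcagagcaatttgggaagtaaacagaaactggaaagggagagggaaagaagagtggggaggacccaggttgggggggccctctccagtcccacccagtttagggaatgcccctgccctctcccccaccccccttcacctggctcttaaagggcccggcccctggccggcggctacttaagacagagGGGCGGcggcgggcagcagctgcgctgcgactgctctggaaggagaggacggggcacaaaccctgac
IGFBP5, chr2:216695500-216695799, minus strand: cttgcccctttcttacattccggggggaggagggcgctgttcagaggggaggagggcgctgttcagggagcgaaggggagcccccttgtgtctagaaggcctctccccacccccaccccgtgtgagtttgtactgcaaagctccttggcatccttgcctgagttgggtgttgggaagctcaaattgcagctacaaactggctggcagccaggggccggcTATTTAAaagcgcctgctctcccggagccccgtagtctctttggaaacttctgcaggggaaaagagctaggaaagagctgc

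The IGFBP3 window held TATATA from base -30 and the IGFBP5 window TATTTAA from base -31, both counted from the start of transcription. In IGFALS, TATAA began at base -46. None of these letters was found in the IGFBP6 window, which held a GC box from base -17. TATAA occurred in 20.4% of 35116 promoters on either strand, TATATA in 3.99%, TATTTAA in 4.52% and GGGCGG in 45%. IGFBP3 (2 matches), IGFALS and IGFBP6 held the GC box and IGFBP5 did not. IGFBP3 had 36 CpG dinucleotides in its window, IGFALS 17, IGFBP6 12 and IGFBP5 9, against a median of 14 over all promoters. The windows of the 3 genes that were brighter in the TIA lines thus did not share 1 TATA form.

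A pair of probe sequences is printed because one reports the IGFBP6 difference and the other is the dimmer of the IGF2 probes. Both 60-base probes are given in hg19 as the array file places them, in the sense of the mRNA and without capitals.
IGFBP6, chr12:53494853-53494912, plus strand: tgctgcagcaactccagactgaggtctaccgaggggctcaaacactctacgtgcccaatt
IGF2, chr11:2154402-2154754, minus strand: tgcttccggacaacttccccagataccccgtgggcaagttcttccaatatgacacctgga

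The IGF2 probe A_23_P421379 has 60 bases over a span of 353, so it crosses an exon junction. The other IGF2 probe, A_23_P150609, lies at chr11:2150394-2150453 on the minus strand, in 1 block. Exons and untranslated regions were not assigned to the other probes, for which no annotation of this build was used.

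IGFALS, which encodes the acid-labile subunit, was brighter in both TIA lines than in either control line. Its signal (NM_004970, chr16:1840455-1840514, hg19) was -1.12 and -0.90 in TIA1-expressing cells and -1.62 and -1.27 in TIAR-expressing cells. It was -3.59 and -3.92 in HuR-expressing cells and -3.75 and -4.34 in GFP cells. All 4 TIA arrays lay above all 4 control arrays, TIA1 lay above TIAR, and HuR and GFP overlapped. The log2 fold change against HuR was 2.75 (SE 0.16, 2 against 2 arrays) for TIA1 and 2.31 (SE 0.19) for TIAR, a 6.71-fold and a 4.97-fold difference. With the authors' values these log2 fold changes were 1.88 and 1.55. Against GFP it was 3.03 (SE 0.29) and 2.60 (SE 0.31). HuR differed from GFP by 0.29 (SE 0.29).

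IGFBP3, the main carrier of IGFs in blood, was not well above background on either HuR array. Its signal was -3.87 and -4.09 in TIA1-expressing cells and -4.02 and -3.88 in TIAR-expressing cells (NM_001013398, chr7:45952608-45952667). The HuR arrays read -7.95 and -8.20 and the GFP arrays -5.18 and -7.37, of which GFP 1 was well above background. Since the HuR level was only bounded, IGFBP3 was at least 4.12-fold higher in TIA1- and at least 4.19-fold higher in TIAR- than in HuR-expressing cells on this scale. The bound holds for this scale alone: the fitted log2 fold changes were 1.50 and 1.46 under normexp background correction and 1.16 and 1.05 with the authors' values, all under it. For this bound, each dim array was set to the lowest reading that counted as well above background there. The probe is spotted 10 times on each array, and 8 to 10 copies were used after outliers were left out. The median intensity over the copies was 90.4 and 70.2 on the TIA1 arrays, 83.4 and 85.3 on the TIAR arrays, and 5.83 and 5.38 on the HuR arrays. No copy was well above background on GFP 2 or either HuR array, 8 of 10 were on GFP 1, and every copy used was on the TIA1 and TIAR arrays. Copies of 1 probe on 1 array repeat the spot and not the cells.

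**Figure D1:**
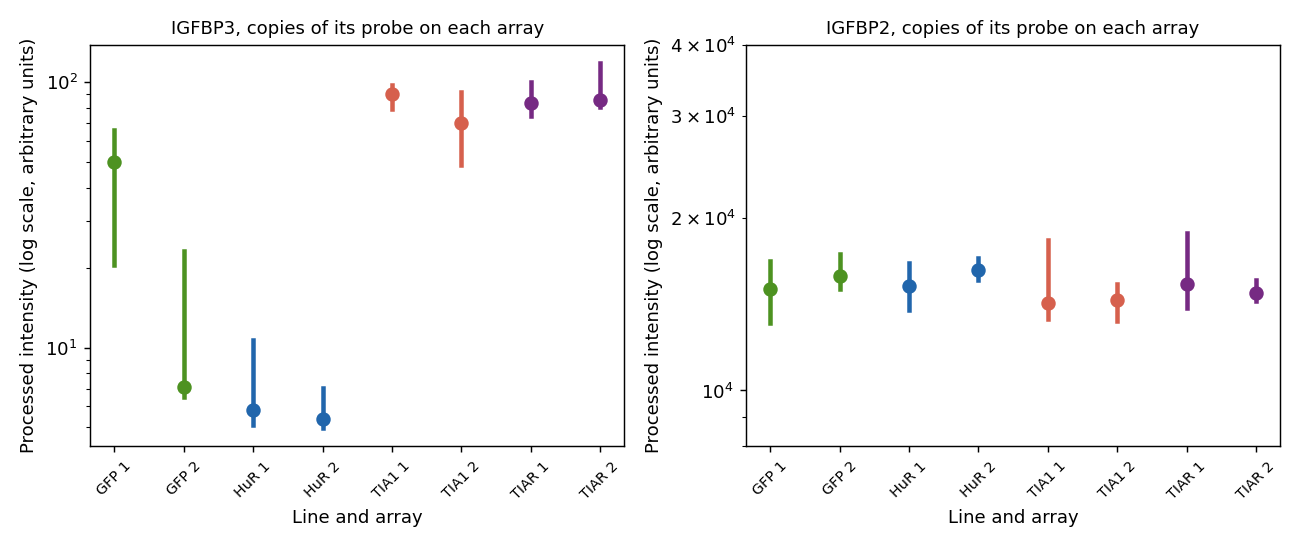
Processed intensity on a log scale of the repeated spots of the IGFBP3 probe and the IGFBP2 probe on each of the 8 arrays, coloured by line. Points are medians and bars run from the lowest to the highest copy. The IGFBP3 medians were 70.2 or more on the TIA1 and TIAR arrays and under 6 on the HuR arrays, while the IGFBP2 medians ran from 14200 to 16200.

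IGFBP6, a binding protein that prefers IGF2, had the order TIA1, TIAR, GFP, HuR. Its signal was -1.48 and -1.18 in TIA1-expressing cells, -1.93 and -1.51 in TIAR-expressing cells, -2.56 and -1.90 in GFP cells and -3.59 and -3.70 in HuR-expressing cells. TIAR and GFP overlapped, and both HuR arrays lay below the other 6. Against HuR the log2 fold change was 2.32 (SE 0.14) for TIA1 and 1.92 (SE 0.17) for TIAR, and 1.61 and 1.21 with the authors' values. HuR stood below GFP by a log2 fold change of -1.41 (SE 0.29), and TIA1 above GFP by 0.90 (SE 0.32).

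IGFBP7, a related secreted protein that binds IGFs weakly, was lowest in HuR-expressing cells. Its signal was 0.05 and 0.15 in TIA1-expressing cells, 0.04 and 0.06 in TIAR-expressing cells, -0.21 and 0.31 in GFP cells and -1.39 and -1.27 in HuR-expressing cells (NM_001553, chr4:57897423-57897482). The TIA1, TIAR and GFP arrays overlapped. The log2 fold change was 1.43 (SE 0.10) for TIA1 and 1.38 (SE 0.10) for TIAR against HuR, but 0.05 (SE 0.26) and 0.00 (SE 0.26) against GFP. HuR against GFP gave -1.38 (SE 0.25).

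IGF2 was read by a bright and a dim probe. The bright probe, A_23_P150609, read 0.11 and 0.65 in TIA1-expressing cells, 0.30 and 0.58 in TIAR-expressing cells, -0.63 and -0.53 in GFP cells and -1.33 and -1.31 in HuR-expressing cells. TIA1 and TIAR overlapped, GFP lay below them, and HuR below GFP. Its log2 fold change against HuR was 1.70 (SE 0.20) for TIA1 and 1.76 (SE 0.13) for TIAR. Against GFP it was 0.97 (SE 0.26) and 1.02 (SE 0.21), and HuR differed from GFP by -0.74 (SE 0.15). The dim junction probe, A_23_P421379, read -4.86 and -4.99 for TIA1, -4.44 and -5.07 for TIAR, -7.82 and -6.27 for HuR, and -3.35 and -5.74 for GFP. Neither HuR array nor GFP 2 was well above background for it, and the TIA1 and TIAR signals were at least 2.14-fold and at least 2.40-fold higher than HuR on this scale, with a log2 fold change of 0.39 in both comparisons with the authors' values. The 2 probes thus had the same direction against HuR. Against GFP, where the junction probe rested on GFP 1, its difference was -0.38 (SE 0.86) for TIA1 and -0.21 (SE 0.90) for TIAR, of the other sign than the bright probe.

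IGFBP5, a binding protein that adheres to extracellular matrix, went the other way. Its signal was -1.02 and -0.81 in HuR-expressing cells, -2.38 and -2.13 in TIAR-expressing cells, -3.01 and -1.36 in TIA1-expressing cells and -2.25 and -1.50 in GFP cells (NM_000599, chr2:217537167-217537226). Both HuR arrays lay above the other 6, whose lines overlapped. The log2 fold change against HuR was -1.34 (SE 0.14) for TIAR and -1.27 (SE 0.57) for TIA1, where the replicates had an SD of 1.17, and HuR against GFP gave 0.96 (SE 0.32).

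IGFBP2, IGFBP4 and the receptors completed the set. IGFBP2, a binding protein of fetal tissues, read 3.20 and 3.58 for GFP, 3.28 and 3.28 for HuR, 3.52 and 3.58 for TIA1 and 3.46 and 3.50 for TIAR (NM_000597, chr2:217529086-217529145). The TIA arrays lay above both HuR arrays, with log2 fold changes of 0.27 (SE 0.09) for TIA1 and 0.20 (SE 0.09) for TIAR. IGF1R, the receptor that passes the growth signal on, read 1.64 and 1.59 for GFP, 1.66 and 1.79 for HuR, 2.12 and 1.91 for TIA1 and 1.56 and 1.74 for TIAR (NM_000875, chr15:99507366-99507425). TIA1 was the highest line, by 0.29 (SE 0.12) against HuR, and TIAR and HuR overlapped. IGF2R, the receptor that clears IGF2, read 0.63 and 0.38 for GFP, 0.61 and 0.61 for HuR, 0.49 and 0.23 for TIA1 and 0.14 and 0.30 for TIAR (NM_000876, chr6:160527114-160527173). Both TIA lines lay below HuR, by -0.24 (SE 0.13) and -0.39 (SE 0.11), and overlapped each other. IGFBP4, the binding protein that the protease PAPPA cleaves, read -3.30 and -7.31 for GFP, -6.00 and -6.44 for HuR, -7.49 and -6.90 for TIA1 and -5.51 and -4.90 for TIAR (NM_001552, chr17:38613308-38613367). It was well above background on GFP 1 and TIAR 2 only, so no order of the lines is read from it and it was fitted in no comparison.

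**Figure D2:**
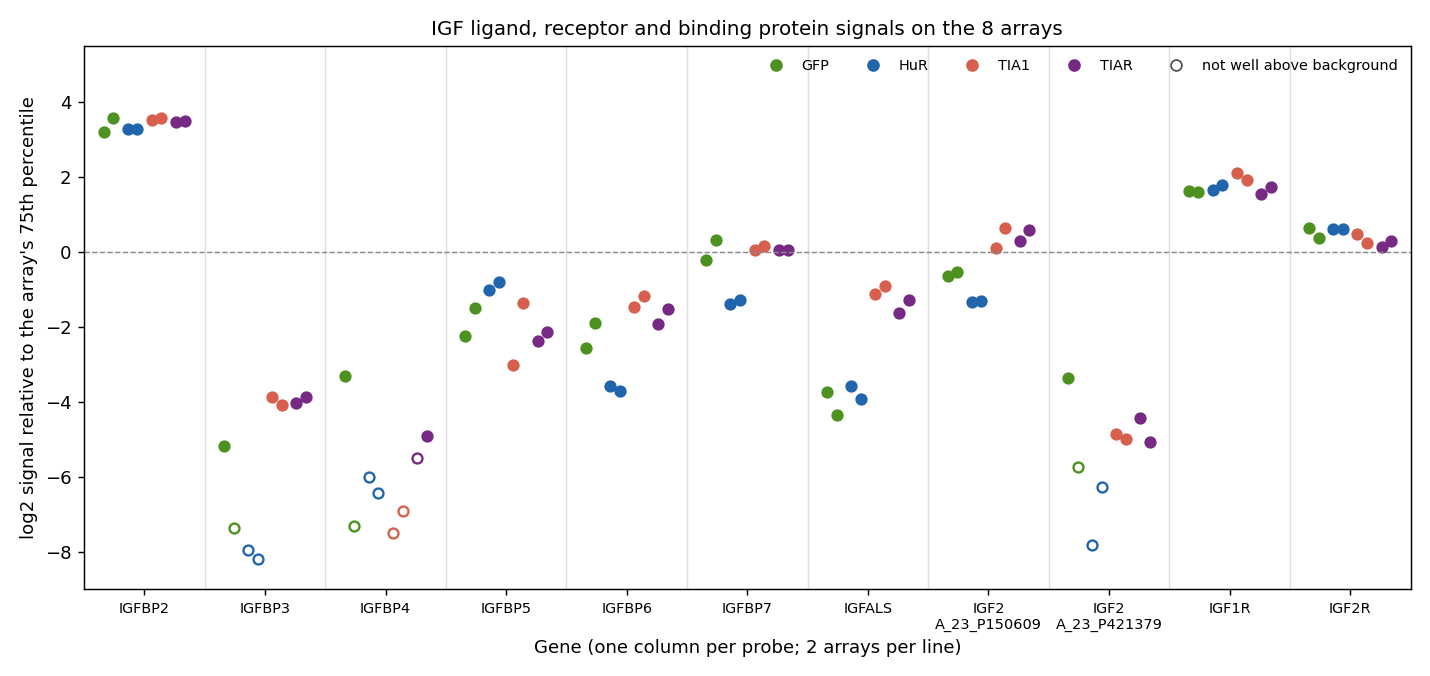
Log2 signal relative to the array's 75th percentile for the 11 IGF system probes, with 2 arrays per line coloured by line and open points for readings not well above background. IGFALS is higher in the TIA1 and TIAR lines than in both control lines, IGFBP6 and IGFBP7 are lowest in the HuR line and IGFBP5 is highest there.

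The arrays were also compared through the share of probes with each pattern. Both TIA lines lay above all HuR and GFP arrays for IGFBP3, IGFALS and the bright IGF2 probe, 3 of the 10 probes well above background in some line, against 12.7% of all 29580 such probes. HuR lay below all 6 other arrays for 5 of 10, which were IGFBP3, IGFBP6, IGFBP7 and both IGF2 probes, against 15.5% of all. HuR lay above all 6 for 1 of 10, IGFBP5, against 11.6%. Since the set was chosen with such patterns known, nothing is read from these shares.

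At a fold change of at least 2 with a limma adjusted p under 0.05, 6 of 10 probes fitted were called in TIA1- versus HuR-expressing cells, all higher, against 13.4% of 28743 probes. In TIAR- versus HuR-expressing cells 6 of 10 were called, 5 higher and 1 lower, against 10.1% of 29099. The called genes were IGFBP3, IGFBP6, IGFBP7, IGFALS and IGF2 in both, with the junction probe of IGF2 added in TIA1 and IGFBP5 in TIAR. IGFBP3 and the junction probe entered the fit only through the bright lines, so they had to differ. Nothing is read from either count, because these contrasts chose the genes. The median log2 fold change of the probes fitted was 1.57 in both comparisons, against 0.08 and 0.05 for all probes. Leaving out HuR 1 or HuR 2 left 2 (IGFALS and IGFBP3) and 1 (IGFBP3) of the TIAR calls, with 2.66% and 2.17% of all probes then called.

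TIAR and TIA1 differed less. None of the 10 probes fitted was called by limma, against 2.35% of 28063, and 0 passed 2-fold with an unadjusted p under 0.05, against 4.02% of all. The widest differences were -0.43 (SE 0.18) for IGFALS, -0.39 (SE 0.20) for IGFBP6 and -0.36 (SE 0.14) for IGF1R, each with the TIAR arrays below the TIA1 arrays. With 2 arrays a line this does not show that the lines act alike.

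Against GFP no probe of the set was called by limma with TIA1, TIAR or HuR, and 0% of all probes were called in each of these comparisons. At an unadjusted p under 0.05 and 2-fold the counts were 2 of 10, 3 of 10 and 2 of 8, against 10.5%, 7.59% and 6.45% of all probes. IGFBP3 is in the TIA1 and TIAR counts. It was not well above background on GFP 2 and entered these fits only through the bright TIA lines, so nothing is read from it. Its calls below without GFP 1 set those lines against a dim array and had to differ. Without GFP 1, taking the lone GFP array to vary like the other line's, 2 probes were called in each comparison: IGFALS and IGFBP3 with TIA1 and with TIAR, and IGFBP6 and IGFBP7 with HuR. Then 11.5%, 6.58% and 8.47% of all probes were called. Without GFP 2 the counts were 4, 3 and 3, with 23.5%, 21.2% and 24.3% of all probes called.

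**Figure D3:**
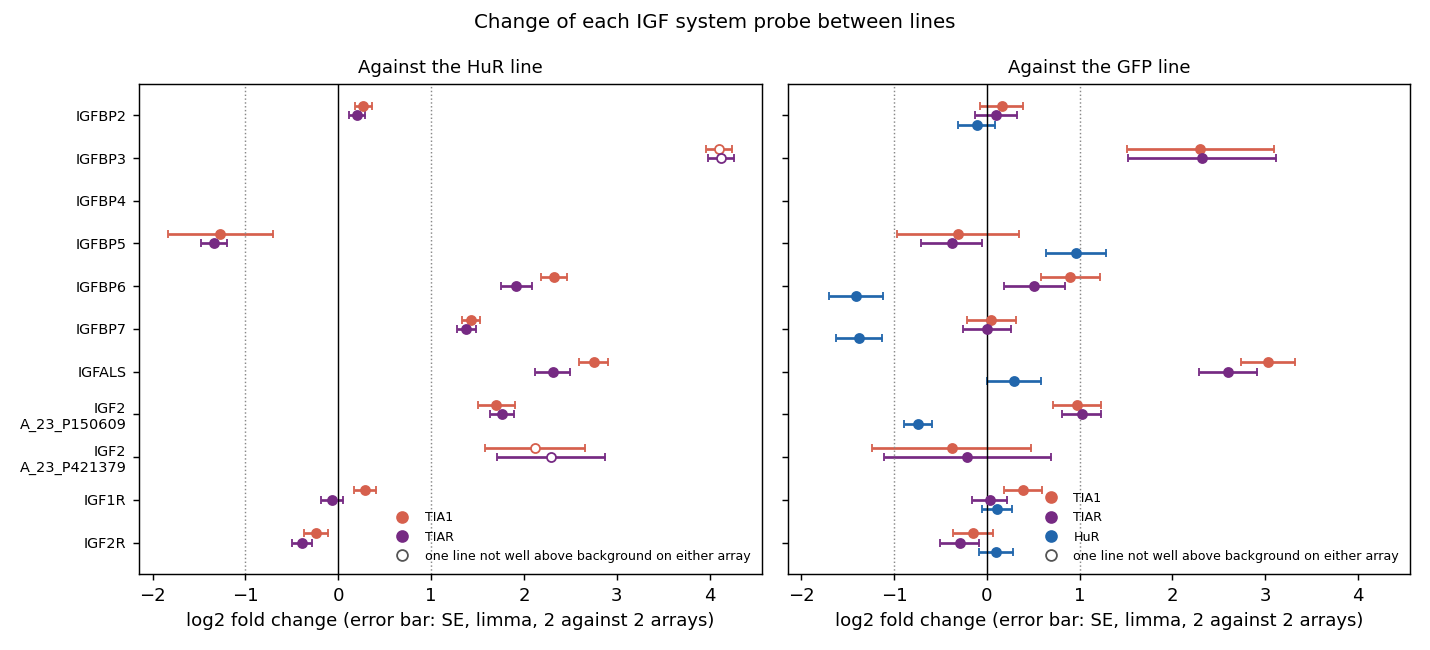
Log2 fold change of each fitted probe against the HuR line (left) and the GFP line (right), with bars for the standard error of the limma fit on 2 against 2 arrays and dotted lines at 2-fold. Open points have a line not well above background on either array and are not bounds. IGFALS stands right of 2-fold in all 4 TIA comparisons, and IGFBP7 does so against HuR and not against GFP. IGFBP4 has no point because it was not fitted.

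Genes that act around the IGFs were read from a list of ligands, receptors, proteases, adaptors and kinases outside the set, with 40 genes on the array. In TIA1- versus HuR-expressing cells, 2 of 33 genes fitted were higher and 3 were lower, against the 13.4% of all probes called. In TIAR- versus HuR-expressing cells 2 of 34 were higher and 4 were lower, against 10.1%. Neither count was tested against these shares. None of 14 genes of the PI3K, AKT, TSC, mTOR and FOXO cascade was called by limma in either comparison. With TIA1, 6 of them had an unadjusted p under 0.05, and FOXO1, a transcription factor of the insulin and IGF response, passed the adjusted p at under 2-fold, with a log2 fold change of 0.71 (SE 0.09, adjusted p = 0.0083). With TIAR, 0 of the 14 had an unadjusted p under 0.05. Of 3 IGF2BP genes, which encode binders of IGF2 mRNA, none was called, and 1 with TIA1 and 0 with TIAR had an unadjusted p under 0.05. The share of all probes with an unadjusted p under 0.05 at any fold is not given. Nothing is therefore read from these unadjusted counts or from how they differ between TIA1 and TIAR. IGF1, the other ligand, and IGFBP1 were not well above background on any of the 7 arrays other than GFP 1. The median log2 fold change of the genes fitted was -0.03 and 0.00.

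The 3 fitted proteases and inhibitors were called in both comparisons. The call of PAPPA in TIA1 and that of HTRA1 in TIAR were lost under normexp, with or without quantile normalization, and with the authors' values. PAPPA, which cleaves IGFBP4 and IGFBP5 and frees bound IGF, read -4.17 and -4.35 in TIA1-expressing cells and -2.74 and -2.58 in TIAR-expressing cells, with -6.38 and -5.99 for HuR and -6.75 and -7.17 for GFP. It was not well above background on any HuR or GFP array. PAPPA was at least 3.24-fold higher in TIA1- and at least 9.86-fold higher in TIAR- than in HuR-expressing cells on this scale. Like IGFBP3, it entered these fits only through the bright lines and had to differ, so no p is given. Between the TIA lines, where it was well above background on all 4 arrays, it was higher in TIAR by a log2 fold change of 1.61 (SE 0.13; limma, adjusted p = 0.023). That call was lost with any 1 array left out, with the replicate block, under normexp alone, without the filter on dim probes, with the authors' values and by the methods' t-test. STC2, a secreted inhibitor of PAPPA, read -0.29 and -0.14 for HuR against -1.77 and -1.30 for TIA1 and -1.51 and -1.32 for TIAR. It fell by 1.32 (SE 0.19, adjusted p = 0.01) and by 1.20 (SE 0.12, adjusted p = 0.0082) on the log2 scale in the limma fits, while the GFP arrays read -0.99 and -1.90. The TIA1 call of STC2 was lost without HuR 1 and without HuR 2, and its TIAR call with all 8 arrays fitted together. HTRA1, a serine protease that cleaves binding proteins, read 1.52 and 1.56 for HuR, 0.99 and 1.24 for GFP, -0.46 and -0.29 for TIA1 and 0.46 and 0.51 for TIAR. It fell by 1.92 (SE 0.11, adjusted p = 0.0023) in TIA1 and by 1.05 (SE 0.09, adjusted p = 0.0065) in TIAR.

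GHR, the growth hormone receptor upstream of IGF1, was bright in HuR-expressing cells. Its signal was -1.32 and -1.11 for HuR, -4.56 and -4.38 for GFP, -5.31 and -4.44 for TIA1 and -2.99 and -3.33 for TIAR. It fell by 3.66 (SE 0.32, adjusted p = 0.004) in TIA1- and by 1.95 (SE 0.16, adjusted p = 0.0061) in TIAR- versus HuR-expressing cells by limma. A second probe fell by 2.04 and by 1.68. That probe passed the filter on dim probes in neither TIA line. It entered these fits only through the bright HuR line and had to differ, so it adds no support. For the first probe, TIA1 and GFP overlapped, and HuR and TIAR stood above them. H19, a noncoding RNA next to IGF2 in the genome, was not well above background on HuR 2. It thus entered the fits against HuR only through the TIA lines, where it was brighter, so no p is given for them. Its log2 fold change was 1.56 (SE 0.22) in TIA1, which was called, and 0.72 in TIAR, which was not. The TIA1 call was lost under normexp, with the authors' values and with probes well above background on all 4 arrays. A second H19 probe gave 3.31 and 2.30 and passed in both, so the probes disagreed, and it was also lower in TIAR than in TIA1, at -1.01 (limma, adjusted p = 0.045). The GFP arrays read -0.67 and -3.89 for the first probe, above TIA1 (-4.34 and -4.32), TIAR (-5.15 and -5.19) and HuR (-5.59 and -6.19), so both TIA lines lay below GFP. IGFBPL1, a binding protein-like gene, rose by 1.09 (SE 0.21, adjusted p = 0.027) in TIAR versus HuR by limma and was not well above background in TIA1. It read -3.67 and -3.20 for TIAR, -4.39 and -4.66 for HuR and -1.84 and -3.61 for GFP, so TIAR overlapped GFP. Its call was lost under normexp, quantile normalization, the authors' values, no filter on dim probes and a fit of all 8 arrays. It was also lost without TIAR 2. IRS4, an adaptor of insulin and IGF receptors that marks HEK293 cells, fell by 1.50 (SE 0.24, adjusted p = 0.018) in TIAR and gave -0.45 (adjusted p = 0.21) in TIA1. Without HuR 1 or HuR 2, the TIAR calls of GHR, STC2, HTRA1, IGFBPL1 and IRS4 were lost.

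**Figure D4:**
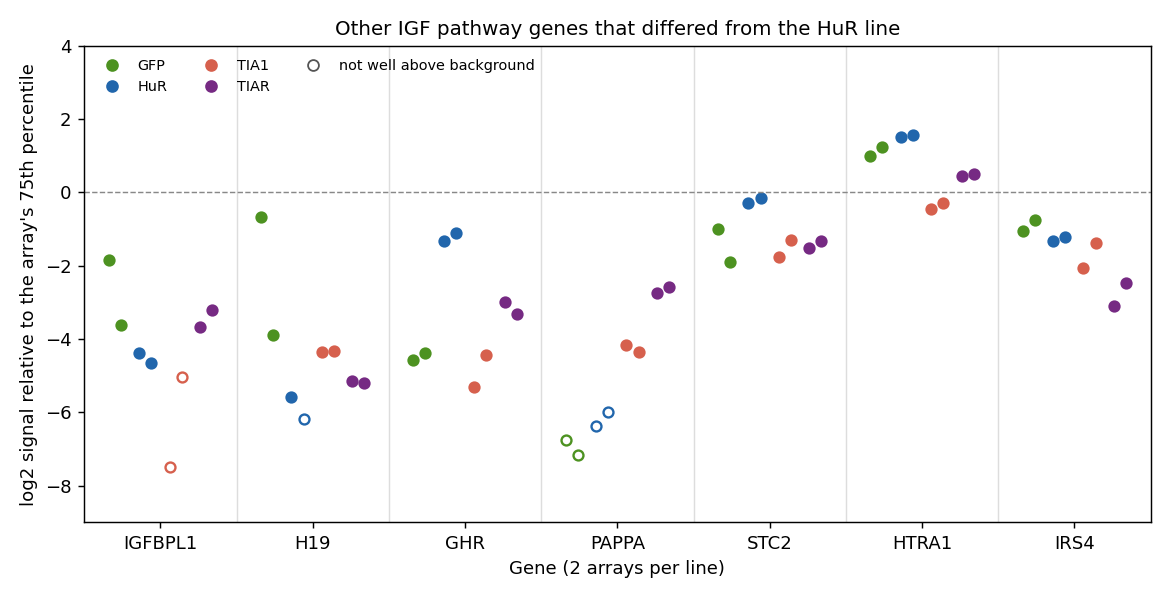
Log2 signal relative to the array's 75th percentile, 2 arrays per line coloured by line, of the 7 other IGF pathway genes that passed the test in at least 1 TIA line against HuR. Open points are readings not well above background. PAPPA is above background in the TIA1 and TIAR lines alone, and GHR, STC2 and HTRA1 are highest in the HuR line.

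The genes whose signals ran most like those of IGFALS and IGFBP6 were sought among 26209 probes well above background on at least 7 arrays, by Pearson correlation over the 8 arrays. These points are 2 arrays from each of 4 lines and share the line. For IGFALS they were LOC100506892 (r = 0.997), PSPN (0.996), which encodes the neurotrophic factor persephin, and XLOC_000735 (0.994). For IGFBP6 they were GAL3ST1 (0.996), a sulfotransferase, APOE (0.994), which encodes a lipid carrier, and XLOC_001414 (0.992).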

How the data were processed

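The 4 FT293 lines were hybridised to 8 one-colour arrays of 1 slide, 2 per line. The authors deposited intensity values from the scanner's Feature Extraction 10.7.3.1 software. Its headers have spatial and multiplicative detrending switched on, and the arrays were not brought to a common scale. They also deposited a log2 table, quantile-normalized, with the TIAR arrays apart from the other lines. The submitters' processing notes name limma. How the background was corrected and that normalization was carried out is not described in the sources used here. With the authors' values, TIAR against another line thus compares arrays normalized apart. The labels call the replicates independent biological replicates, and their labelling protocol names a different array than the design text and the file headers do.

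Processed signals were log2-transformed and centred on each array's 75th percentile. Outlier spots were dropped before a probe's spots were averaged. A probe was well above background where at least 50% of its spots were. A probe had to pass this on both arrays of 1 or both lines to be fitted in R 4.3.3 with limma 3.58.1 on the 4 arrays of each comparison. A call needed a 2-fold difference or more, together with an adjusted p (Benjamini-Hochberg, over all fitted probes) under 0.05. Limma was tested on simulated data. Plots were drawn with matplotlib 3.10.9.

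The genes, lists and alternatives were chosen with earlier results of these data known. Named are all 10 genes with every probe, the listed pathway genes called against HuR, and the 3 gene names most like IGFALS and IGFBP6. A pathway gene was read by its probe with the highest mean. The number of arrays limits the precision. A result that is withheld is not reported here.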

Additional observations from a re-analysis of the deposited data

Results flagged for a closer look

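PAPPA is listed here because its difference between the 2 TIA lines was itself past the test, with a log2 fold change of 1.61 (TIAR over TIA1; SE 0.13; limma, adjusted p = 0.023). Both TIAR arrays lay above both TIA1 arrays. The call was lost with any 1 of the 4 arrays left out, with the replicate block, under normexp alone, without the filter on dim probes, with the authors' values and by the methods' t-test.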

How the results depend on the processing

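Alternatives covered background correction, normalization, the filter on dim probes, the arrays fitted and the test. Of 580 log2 fold changes of the IGF system probes under them, 520 kept their sign, and the 60 that did not had a reported value of at most 0.38 in size. None of the called values turned. Sizes moved more: with the authors' values 35 of 58 differed from the reported value by more than the replicate SD, as did 25 of 58 under normexp. The methods' paired t-test called 2 IGF system probes in TIA1 versus HuR without adjustment. After Benjamini-Hochberg adjustment it called 0 in TIA1 versus HuR and 0 in TIAR versus HuR. Leaving out 1 array gave 5 to 6 calls in TIA1 versus HuR and 1 to 6 in TIAR versus HuR. Against GFP, where none were called, leaving out 1 array gave 0 to 4 with TIA1, 0 to 3 with TIAR and 0 to 3 with HuR, with up to 23.5%, 21.2% and 24.3% of all probes called, and fitting all 8 arrays together gave 1, 2 and 2, with 9.05%, 5.95% and 3.96%.

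Of the other pathway genes, 5 were called in TIA1 versus HuR, and 3 under normexp, under normexp with quantile normalization, with the authors' values and with probes well above background on all 4 arrays. The methods' paired t-test called 1 without adjustment and 0 after Benjamini-Hochberg adjustment. In TIAR versus HuR, 6 were called, 1 to 6 leaving out 1 array, 3 by the methods' paired t-test without adjustment and 0 after Benjamini-Hochberg adjustment. PAPPA in TIAR versus TIA1 was lost (0 called) under normexp, without the filter on dim probes, with the replicate block, by the methods' t-test after adjustment, and with any 1 array left out (0 to 0). It was also lost with the authors' values and by the methods' t-test without adjustment, where 1 other gene was called in each. The causes were not tested.

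The replicate numbers did not pair the arrays: same-numbered arrays deviated together with correlations of -0.09 to 0.18. The replicate block gave 6 and 6 IGF system calls against HuR and 0 in each other comparison, and changed no other call than PAPPA's and that of IGFBPL1 in TIAR versus HuR, where 5 pathway genes were called.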
